A study of Homo sapiens with 12 samples.

Results

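The transcripts examined here encode 10 subunits of the SWI/SNF (BAF) chromatin remodelling complexes, ARID1A, ARID1B, ARID2, PBRM1, SMARCA4, SMARCA2, SMARCC1, SMARCC2, SMARCB1 and SMARCE1. They were taken by gene symbol out of 60617 gene identifiers, and all 10 averaged at least 1 count per library and entered the test with 22756 genes in total. Loss of ARID1A often accompanies PIK3CA mutation in endometrial lesions, which is why these subunits were followed in cells given mutant PIK3CA. RNA-seq was carried out on 12Z cells, an immortalized epithelial line from endometriosis (endometrium-like lesions outside the uterus). There were 4 groups of 3 libraries, described as independent experiments. H1047R insulin cells received the pBabe plasmid with PIK3CA H1047R, an activating mutation in the kinase domain of the PI3K catalytic subunit p110α, and then 100 nM insulin for 24 h. H1047R vehicle cells received the same plasmid and vehicle for 24 h. Control insulin cells received empty pBabe and 100 nM insulin for 24 h, and control vehicle cells empty pBabe and vehicle for 24 h. All 4 groups had first been transfected with non-targeting siRNA and were kept serum-free for 4 h before treatment. Plasmids were transfected transiently, no selection of transfected cells is described, and a single cell line was used, so levels are averages over cells with and without the plasmid.

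SWI/SNF complexes use ATP to slide or evict nucleosomes and so open promoters and enhancers to transcription factors. Each complex holds SMARCA4 (BRG1) or SMARCA2 (BRM) as its only ATPase, built on a core that includes SMARCC1, SMARCC2 or both, with other proteins. The canonical BAF complex (cBAF) carries ARID1A or ARID1B with a DPF protein, whereas PBAF carries ARID2, PBRM1, PHF10 and BRD7, and the non-canonical complex (ncBAF) carries BRD9 with BICRA or BICRAL. ARID1A is a tumour suppressor frequently mutated in endometrial and ovarian clear cell carcinoma and found mutated in endometriosis as well.

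Gene counts per library ranged from 30071951 to 37918025 in H1047R insulin and from 21483124 to 29255708 in the other 3 groups. Reads placed at several sites, which are not counted for any gene, made up 8.48 to 9.51% in H1047R insulin and 13.6 to 15.4% in the other groups, and the part of this gap in the results was not tested. PIK3CA, the transfected gene, was at 734, 714 and 715 CPM (gene counts scaled to library size by the TMM method) in H1047R insulin, at 312, 180 and 215 CPM in H1047R vehicle, at 81.1, 85.9 and 80.9 CPM in control insulin and at 89.0, 88.2 and 88.7 CPM in control vehicle. Every H1047R library was above every control library, as labelled, but H1047R insulin held 3.06 times the PIK3CA of H1047R vehicle (95% interval 2.72 to 3.45), so that insulin and PIK3CA level cannot be told apart in H1047R cells. Of the epithelial markers, KRT8 (1359 to 1504 CPM over all libraries), KRT18 and KRT19 were abundant, while EPCAM reached at most 1.06 CPM and CDH1 at most 2.38 CPM. Mesenchymal and stromal markers were abundant as well, summing over 8 genes to 8389 to 8732 CPM in H1047R insulin, 11091 to 11652 CPM in H1047R vehicle, 10350 to 10861 CPM in control insulin and 11306 to 11874 CPM in control vehicle. With insulin in H1047R cells 7 of these 8 genes were called lower and 1, VIM, higher (FDR below 0.001, defined below). Beside them, 19.6% of all genes were called and 9.80% called as lower. Insulin in control cells called 2 of the 8 as lower, beside 1.63% of all genes called. Of the 8 epithelial markers, insulin in H1047R cells called 1 higher and 1 lower. The part of the mesenchymal shift in the subunit results was not tested. Immune and endothelial markers summed to at most 10.1 CPM, with CD3E at 0 in every library. In bulk RNA, fewer cells of a type and less RNA per cell cannot be told apart.

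The 5 promoters printed here belong to genes on which the results turn. ARID1A is the subunit of most interest in endometrial disease. PBRM1 and PHF10 are both PBAF subunits but moved in opposite directions between H1047R insulin and control insulin, and the paralogs BCL7B and BCL7C did so too. Each sequence holds the 250 bases before the RefSeq start site (GRCh38.p14), 5′ to 3′ on the strand of the gene. Capitals mark matches, on either strand, to 6 motifs that were searched, the GC box GGGCGG, the CCAAT box, the E-box CACGTG, the ETS site CCGGAAG, the TATA box TATAAA and the cyclic AMP response element TGACGTCA. Matches may overlap, and each was counted. The ARID1A window was chr1:26695765-26696014 (plus strand), PBRM1 chr3:52685914-52686163 (minus strand), PHF10 chr6:169724501-169724750 (minus strand), BCL7B chr7:73557691-73557940 (minus strand) and BCL7C chr16:30894078-30894327 (minus strand).
ARID1A: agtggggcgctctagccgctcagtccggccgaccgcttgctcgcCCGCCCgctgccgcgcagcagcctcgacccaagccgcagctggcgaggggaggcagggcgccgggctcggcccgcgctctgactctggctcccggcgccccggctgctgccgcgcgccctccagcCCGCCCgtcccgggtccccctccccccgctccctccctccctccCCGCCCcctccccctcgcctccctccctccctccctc
PBRM1: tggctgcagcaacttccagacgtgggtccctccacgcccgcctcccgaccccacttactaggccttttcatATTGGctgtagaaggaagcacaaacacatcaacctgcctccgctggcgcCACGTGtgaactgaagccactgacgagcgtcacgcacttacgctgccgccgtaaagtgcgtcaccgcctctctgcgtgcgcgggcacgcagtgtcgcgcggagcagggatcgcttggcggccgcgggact
PHF10: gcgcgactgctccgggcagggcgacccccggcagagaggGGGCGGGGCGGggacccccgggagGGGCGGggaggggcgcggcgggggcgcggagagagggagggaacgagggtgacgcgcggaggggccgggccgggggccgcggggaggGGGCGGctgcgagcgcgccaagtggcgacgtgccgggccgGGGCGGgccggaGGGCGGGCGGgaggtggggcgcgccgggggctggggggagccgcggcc
BCL7B: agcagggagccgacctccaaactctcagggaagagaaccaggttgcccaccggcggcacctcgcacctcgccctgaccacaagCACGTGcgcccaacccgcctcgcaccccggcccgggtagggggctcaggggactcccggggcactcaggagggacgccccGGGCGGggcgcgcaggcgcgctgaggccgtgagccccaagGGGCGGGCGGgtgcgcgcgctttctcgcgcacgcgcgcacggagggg
BCL7C: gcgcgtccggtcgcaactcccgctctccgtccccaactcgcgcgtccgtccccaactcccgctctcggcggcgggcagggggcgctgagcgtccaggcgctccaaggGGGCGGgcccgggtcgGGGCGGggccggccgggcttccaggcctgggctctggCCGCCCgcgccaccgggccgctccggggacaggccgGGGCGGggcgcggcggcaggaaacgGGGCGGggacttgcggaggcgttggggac

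The ARID1A window was 80.4% G or C and held 3 GC boxes, and PHF10 was 86.4% G or C with 7 GC boxes. BCL7B held 3 GC boxes and 1 E-box, BCL7C held 5 GC boxes, and PBRM1, at 63.6% G or C, held none but had 1 CCAAT box and 1 E-box. RefSeq windows were found for 24 of 29 SWI/SNF subunits, 7 of them among the 10 members. A GC box stood in 19 of the 24 windows (5 of 7 members), against 42.6% of all 35116 promoter windows of the same length. A CCAAT box stood in 7 of 24, against 32% of all windows, an E-box in 2 of 24, against 6.34%, and an ETS site in 2 of 24, against 8.52%. No window of the 24 held the TATA box or the cyclic AMP response element, which stood in 10.7% and 1.65% of all windows. These matches are a description of the letters in the windows.

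The members differed widely in level. The ranges given here show the spread between libraries only, and the choice of 1 transcript length per gene is not part of them. Per kilobase of the canonical transcript (CPM per kb, over all 12 libraries), the core scaffolds SMARCC1 and SMARCC2 and the ATPase SMARCA4 stood highest, with means of 40.0, 39.6 and 38.1 CPM per kb. Their library ranges, 35.7 to 43.8, 37.4 to 42.3 and 36.2 to 40.2 CPM per kb, overlapped. PBRM1, the bromodomain subunit of PBAF, came next (mean 19.8, range 17.6 to 21.9 CPM per kb), then ARID1A (mean 16.2, range 14.9 to 17.0 CPM per kb), and their ranges did not overlap. SMARCA2 (mean 12.0, range 11.1 to 12.7 CPM per kb) and ARID1B (mean 9.93, range 9.11 to 11.2 CPM per kb) overlapped each other. SMARCB1 (mean 8.65, range 8.09 to 9.07 CPM per kb) and ARID2 (mean 7.12, range 6.63 to 7.63 CPM per kb) followed without overlap. Transcripts for both cBAF ARID subunits and for PBAF were present in every library. SMARCE1 was listed lowest, at a mean of 1.24 CPM per kb, but its count is uncertain. On the same strand, 51.5% of the exon bases of its canonical transcript are shared with an overlapping gene model (ENSG00000264058), where the counting method assigns reads to neither gene, and 7 processed pseudogenes are annotated. Its counts ran from 138 to 229 per library, against at least 997 for every other member.

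**Figure D1:**
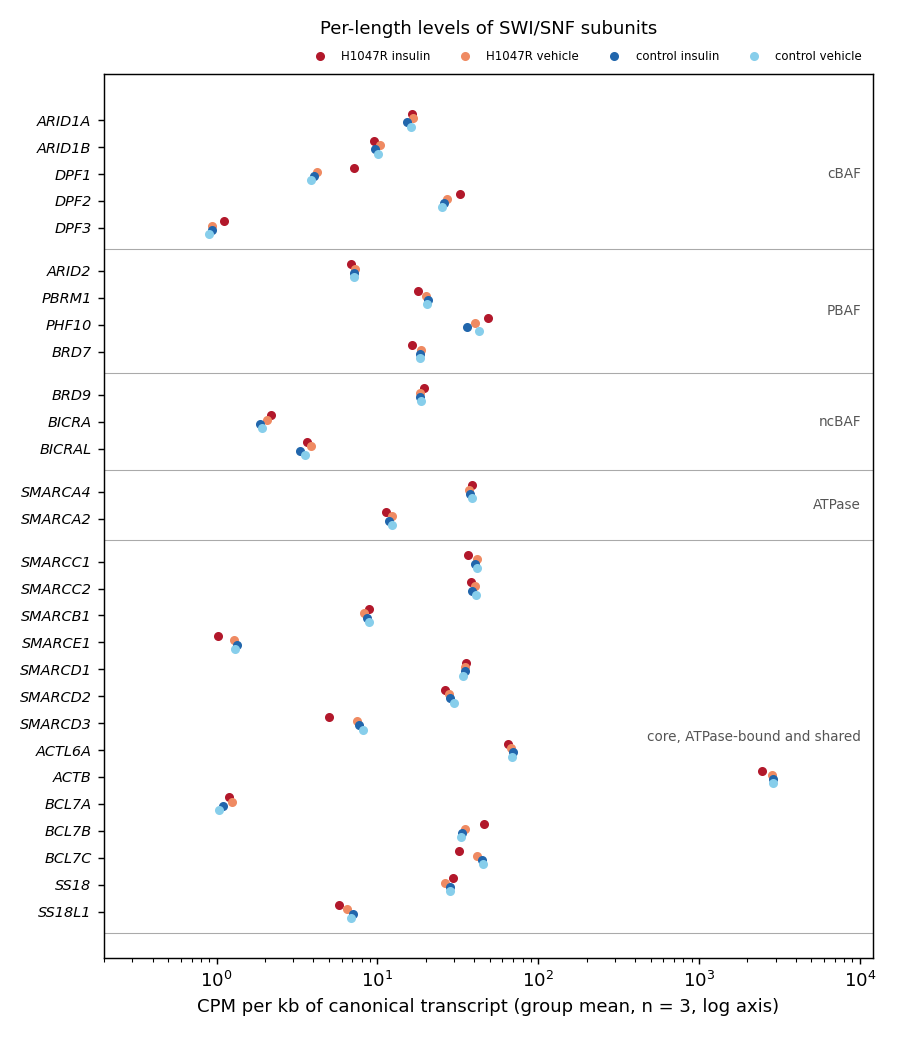
Levels of 28 SWI/SNF subunits in CPM per kb of canonical transcript on a log axis, as the mean of 3 libraries for H1047R insulin, H1047R vehicle, control insulin and control vehicle (colours), with the genes grouped by complex. SMARCC1, SMARCC2 and SMARCA4 lie near 40.0 CPM per kb, ARID1A near 16.2 and ARID2 near 7.12, and within most genes the 4 groups nearly coincide, with DPF1, SMARCD3, PHF10, BCL7B and BCL7C showing a shifted H1047R insulin point.

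The members were nearly level across the 4 groups. In 9 of the 10, the highest of the 12 libraries was 1.11 to 1.24 times the lowest, and SMARCE1, with the fewest counts, reached 1.77. The summed level of the 10 was 1184 to 1223 CPM in H1047R insulin, 1232 to 1301 CPM in H1047R vehicle, 1212 to 1278 CPM in control insulin and 1231 to 1328 CPM in control vehicle. Genes were called at an FDR (Benjamini-Hochberg adjusted p over all genes, edgeR quasi-likelihood test) below 0.001. Insulin in H1047R cells, that is H1047R insulin against H1047R vehicle, called 1 member, SMARCC1, as lower, beside 19.6% of all genes called and 9.80% called as lower. H1047R in insulin, that is H1047R insulin against control insulin, called 1 member, PBRM1, as lower, beside 23.5% of all genes called and 12.0% called as lower. Insulin in control cells called 0 members beside 1.63% of all genes, with 1 member at an unadjusted p below 0.05, and H1047R in vehicle called 0 members beside 0.158% of all genes, with none at an unadjusted p below 0.05. The difference of the insulin effects (H1047R cells minus control cells) called 0 members beside 9.07% of all genes, with 2 members at an unadjusted p below 0.05. DESeq2 also called 0 members in the last 3 of these comparisons, 1 (SMARCC1) for insulin in H1047R cells and none for H1047R in insulin.

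The median log2 fold change of the 10 members was -0.11 for insulin in H1047R cells (all genes tested, -0.001), -0.029 for H1047R in insulin (all genes, -0.022), -0.040 for insulin in control cells (all genes, 0.004), -0.002 for H1047R in vehicle (all genes, 0.002) and -0.056 for the difference of the insulin effects (all genes, -0.014). With insulin in H1047R cells, 8 of 10 members had a negative log2 fold change, as had 11390 of all 22756 genes. Of the 8, 5 had an FDR below 0.05 (ARID1B, SMARCA2, SMARCC1, SMARCE1 and PBRM1), where 17.0% of all genes were lower at that threshold. Negative values were as frequent with insulin in control cells (8 of 10 members, 11140 of all genes), with no member at an FDR below 0.05. For H1047R in insulin they were found in 7 of 10 members (11823 of all genes). The 3 libraries of each group did not overlap for 6 members with insulin in H1047R cells, where 44.8% of all genes did not overlap, for 3 members with H1047R in insulin (48.5% of all genes), for 1 with insulin in control cells (20.3%) and for 1 with H1047R in vehicle (14.4%). The comparisons share groups, so the counts do not add up as separate evidence.

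**Figure D2:**
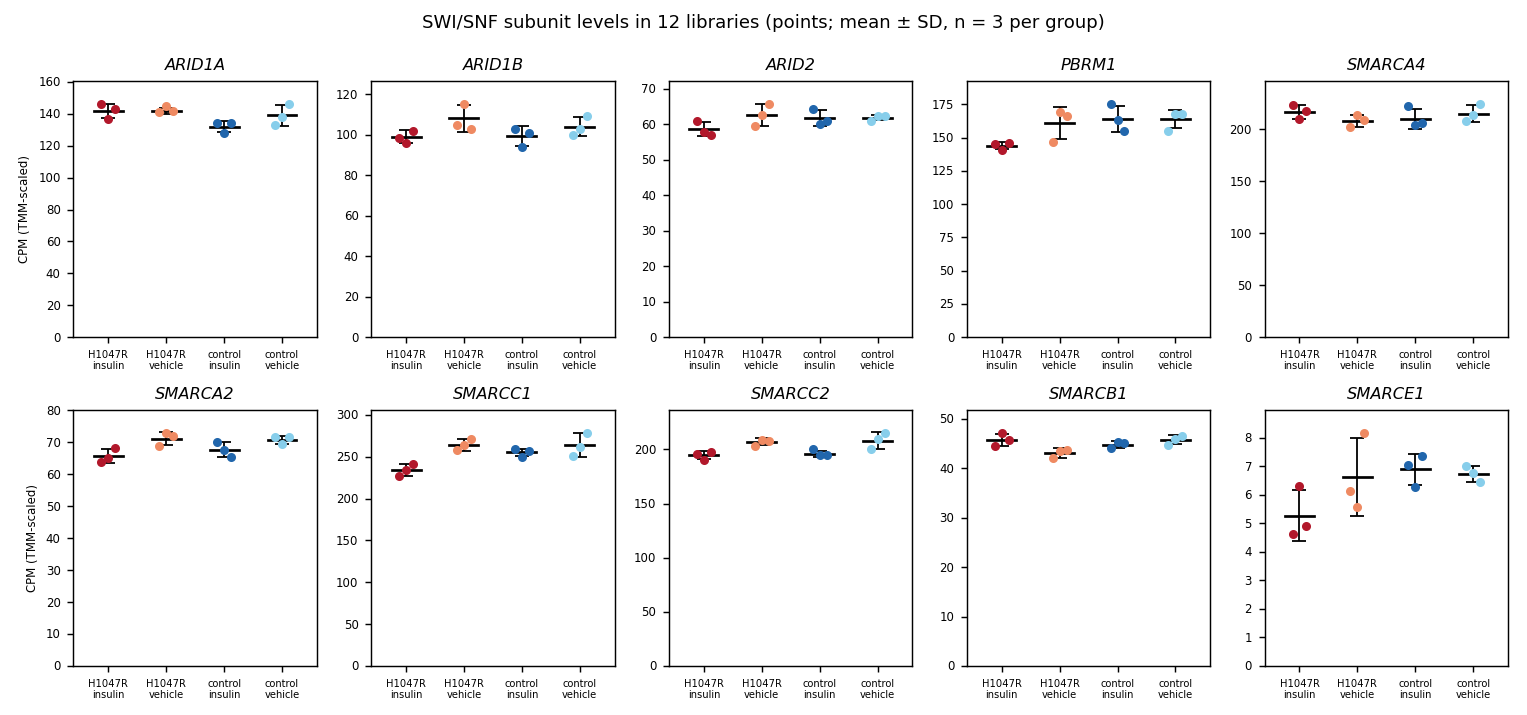
Level of each of the 10 members in TMM-scaled CPM (vertical axes from 0) for the 3 libraries (points) of H1047R insulin, H1047R vehicle, control insulin and control vehicle, with the mean and SD of each group. ARID1A stays between 128 and 146 CPM in all 12 libraries, while the H1047R insulin libraries of SMARCC1 (227 to 241 CPM) and PBRM1 (141 to 146 CPM) lie below those of all other groups.

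ARID1A, the DNA-binding subunit of cBAF on chromosome 1 (26693236 to 26782104, plus strand, hg38), was at 146, 137 and 143 CPM in H1047R insulin and at 141, 145 and 142 CPM in H1047R vehicle. It was at 134, 128 and 134 CPM in control insulin and at 133, 138 and 146 CPM in control vehicle. The H1047R insulin, H1047R vehicle and control vehicle libraries overlapped, and control insulin had the lowest mean, with 1 control vehicle library within its range. Insulin in H1047R cells left ARID1A at a log2 fold change of -0.0047 ± 0.0416 (SE), with a 95% interval of the fold change from 0.940 to 1.06 and adjusted p = 0.955 by edgeR. For H1047R in vehicle it was 0.033 ± 0.0422 (fold 0.964 to 1.09, adjusted p = 0.829). For insulin in control cells it was -0.079 ± 0.0421 (fold 0.892 to 1.00, adjusted p = 0.360). For H1047R in insulin all 3 libraries were above all 3 control insulin libraries and the log2 fold change was 0.11 ± 0.0416 (fold 1.02 to 1.14), which did not pass the threshold (adjusted p = 0.0374). The insulin effects of both genotypes on ARID1A differed by 0.074 ± 0.0592 on the log2 scale (adjusted p = 0.444), so an effect particular to H1047R cells was not detected. The highest bound of the 4 pairwise intervals was 1.14-fold and the lowest 0.892-fold.

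ARID1B, the paralog that takes the place of ARID1A in other cBAF complexes (chromosome 6, 156776020 to 157210779), was at 98.3, 96.0 and 102 CPM in H1047R insulin and at 105, 115 and 103 CPM in H1047R vehicle. It was at 103, 93.9 and 101 CPM in control insulin and at 100, 103 and 109 CPM in control vehicle. The H1047R insulin libraries were all below the H1047R vehicle libraries but overlapped with control insulin. The log2 fold change was -0.12 ± 0.0470 for insulin in H1047R cells (adjusted p = 0.0376) and -0.0060 ± 0.0469 for H1047R in insulin (adjusted p = 0.940), and neither passed.

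Of the PBAF subunits, PBRM1, which reads acetylated histones through its bromodomains (chromosome 3, 52545352 to 52685917, minus strand), gave 145, 141 and 146 CPM in H1047R insulin and 147, 169 and 166 CPM in H1047R vehicle. Control insulin libraries had 175, 163 and 155 CPM and control vehicle libraries 155, 168 and 168 CPM. All 3 H1047R insulin libraries were below the other 9, although H1047R vehicle replicate 1 came close to them. PBRM1 fell with H1047R in insulin, by 0.19 on the log2 scale (SE 0.0472, fold 0.875, 95% interval 0.819 to 0.935, adjusted p = 9.35e-04). For insulin in H1047R cells the log2 fold change was -0.16 ± 0.0475 and did not pass (adjusted p = 0.00695), but it did without H1047R vehicle replicate 1 (-0.19, adjusted p = 3.85e-04). The call of H1047R in insulin was lost when any of 7 single libraries was left out. Without control insulin replicate 1 the log2 fold change was -0.14 (adjusted p = 0.0208) and without control insulin replicate 2 it was -0.20 (adjusted p = 0.00359). Without H1047R insulin replicates 1, 2 or 3 it was -0.20, -0.18 and -0.20 (adjusted p = 0.00322, 0.00856 and 0.00295), and without control vehicle replicates 2 or 3, -0.19 each (adjusted p = 0.00132 and 0.00108). DESeq2 gave -0.17 (adjusted p = 0.00430). The insulin effect on PBRM1 differed between H1047R and control cells by -0.17 ± 0.0672 on the log2 scale, which did not pass (adjusted p = 0.0738).

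ARID2, the ARID subunit of PBAF (chromosome 12, 45729706 to 45908040), was at 60.8, 57.8 and 57.0 CPM in H1047R insulin, 59.6, 62.7 and 65.6 CPM in H1047R vehicle, 64.4, 60.0 and 61.0 CPM in control insulin and 61.0, 62.2 and 62.2 CPM in control vehicle. The groups overlapped in each comparison. The log2 fold changes of ARID2 ranged from -0.098 ± 0.0477 for insulin in H1047R cells (adjusted p = 0.114) to 0.019 ± 0.0486 for H1047R in vehicle (adjusted p = 0.930).

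The ATPases SMARCA4 and SMARCA2, which drive nucleosome movement, were not called in any comparison. SMARCA4 (chromosome 19, 10960932 to 11079426) was at 223, 210 and 218 CPM in H1047R insulin, 202, 214 and 209 CPM in H1047R vehicle, 222, 204 and 206 CPM in control insulin and 208, 214 and 224 CPM in control vehicle. All 4 groups overlapped, and the log2 fold changes ranged from -0.047 ± 0.0416 for H1047R in vehicle to 0.059 ± 0.0413 for insulin in H1047R cells (adjusted p = 0.724 and 0.299). SMARCA2 (chromosome 9, 1980290 to 2193624) was at 63.8, 64.9 and 68.1 CPM in H1047R insulin, below the 68.8, 72.8 and 71.8 CPM of H1047R vehicle. It was at 70.0, 67.6 and 65.3 CPM in control insulin and at 71.5, 69.3 and 71.5 CPM in control vehicle. The log2 fold change of SMARCA2 for insulin in H1047R cells was -0.12 ± 0.0456 (adjusted p = 0.0437).

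Among the core subunits, SMARCC1 (BAF155), a scaffold on which the complexes assemble (chromosome 3, 47585269 to 47782106, minus strand), was at 227, 234 and 241 CPM in H1047R insulin and at 258, 264 and 271 CPM in H1047R vehicle. It was at 259, 250 and 257 CPM in control insulin and at 251, 261 and 278 CPM in control vehicle. The 3 H1047R insulin libraries were the lowest of the 12. SMARCC1 fell with insulin in H1047R cells, by 0.18 on the log2 scale (SE 0.0399, fold 0.884, 95% interval 0.836 to 0.935, adjusted p = 4.08e-04). For H1047R in insulin the log2 fold change was -0.13 ± 0.0398 and did not pass (adjusted p = 0.00954), and the difference of the insulin effects was -0.13 ± 0.0565 (adjusted p = 0.0987). The call was lost without H1047R vehicle replicates 1, 2 or 3 (-0.17, -0.18 and -0.16, adjusted p = 0.00118, 0.00218 and 0.00423) and without H1047R insulin replicates 1 or 2 (-0.16 and -0.18, adjusted p = 0.00647 and 0.00253). It was also lost with DESeq2 size factors (-0.17, adjusted p = 0.00115) and with library totals only (-0.14, adjusted p = 0.00396), and DESeq2 itself called it (-0.17, adjusted p = 3.99e-04).

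SMARCC2 (BAF170), the paralog of SMARCC1 (chromosome 12, 56162359 to 56189567), was at 196, 190 and 198 CPM in H1047R insulin, 203, 209 and 208 CPM in H1047R vehicle, 200, 195 and 195 CPM in control insulin and 200, 210 and 215 CPM in control vehicle. In both genotypes the insulin libraries were below the vehicle libraries, in control cells by a margin lost in rounding, with log2 fold changes of -0.089 ± 0.0385 in H1047R cells (adjusted p = 0.0714) and -0.084 ± 0.0387 in control cells (adjusted p = 0.253), neither of which passed. SMARCB1 (SNF5), the core subunit lost in rhabdoid tumours (chromosome 22, 23786931 to 23838009), was at 44.6, 47.1 and 45.7 CPM in H1047R insulin, 42.0, 43.5 and 43.8 CPM in H1047R vehicle, 44.1, 45.3 and 45.1 CPM in control insulin and 44.7, 46.0 and 46.6 CPM in control vehicle. The H1047R vehicle libraries were the lowest, and log2 fold changes of SMARCB1 were 0.087 ± 0.0490 for insulin in H1047R cells (adjusted p = 0.180) and -0.087 ± 0.0503 for H1047R in vehicle (adjusted p = 0.519). SMARCE1 (BAF57), an HMG-box subunit (chromosome 17, 40624962 to 40648654), gave 4.61, 6.30 and 4.90 CPM in H1047R insulin, 6.15, 5.57 and 8.16 CPM in H1047R vehicle, 7.05, 6.29 and 7.35 CPM in control insulin and 7.00, 6.78 and 6.44 CPM in control vehicle. Its groups overlapped wherever H1047R insulin was compared, and the log2 fold changes of -0.32 ± 0.123 for insulin in H1047R cells and -0.38 ± 0.120 for H1047R in insulin, the largest of any member, did not pass (adjusted p = 0.0382 and 0.00957).

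**Figure D3:**
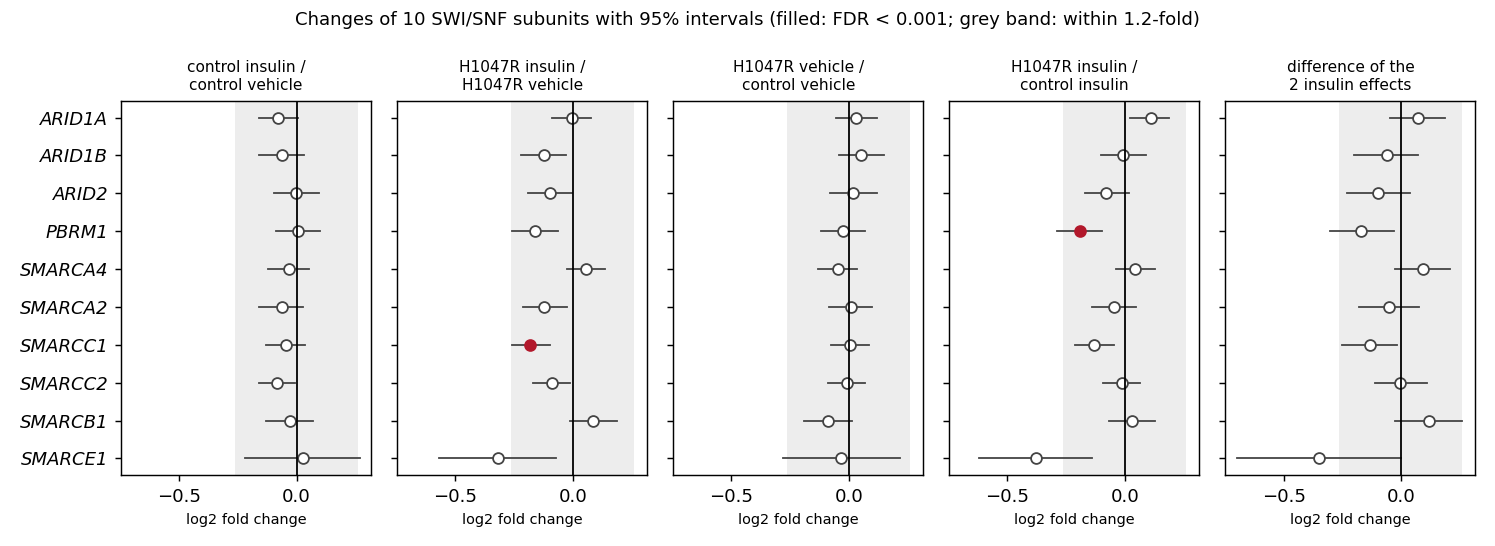
Log2 fold change (points) with 95% interval (lines) of the 10 members in the 5 comparisons, with filled points for an FDR below 0.001 and a grey band for changes within 1.2-fold. Only SMARCC1 for H1047R insulin against H1047R vehicle (-0.18) and PBRM1 for H1047R insulin against control insulin (-0.19) are filled, and every point of the 9 members other than SMARCE1 lies within the band.

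Pairs of paralogs can occupy the same place in a complex, so the ratio of their counts within each library, which does not depend on library scaling, was compared between groups. The ratio ARID1B/ARID1A was 0.674, 0.700 and 0.714 in H1047R insulin, 0.744, 0.795 and 0.727 in H1047R vehicle, 0.771, 0.735 and 0.753 in control insulin and 0.750, 0.742 and 0.743 in control vehicle. The ratio SMARCA2/SMARCA4 was 0.286, 0.309 and 0.312 in H1047R insulin, 0.341, 0.340 and 0.343 in H1047R vehicle, 0.316, 0.332 and 0.318 in control insulin and 0.344, 0.324 and 0.319 in control vehicle. The ratio SMARCC2/SMARCC1 was 0.865, 0.815 and 0.821 in H1047R insulin, 0.790, 0.793 and 0.769 in H1047R vehicle, 0.772, 0.780 and 0.758 in control insulin and 0.797, 0.804 and 0.773 in control vehicle. In H1047R insulin the first 2 ratios were below, and the third above, all libraries of both H1047R vehicle and control insulin. Of single genes, 44.8% and 48.5% did not overlap in these 2 comparisons, and no such share was computed for ratios of other gene pairs. The ratios rest on the same counts as the member results above. For H1047R insulin against H1047R vehicle the mean log2 ratios differed by -0.12 for ARID1B/ARID1A, -0.18 for SMARCA2/SMARCA4 and 0.089 for SMARCC2/SMARCC1, and against control insulin by -0.11, -0.091 and 0.11. Each of these 6 had a two-sided exact permutation p = 0.1, the smallest that 3 libraries against 3 can give, and adjusted over the 12 ratio tests p = 0.200, so none can pass 0.05. The other 6 differences lay between -0.039 and 0.055 (exact p from 0.200 to 0.800).

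**Figure D4:**
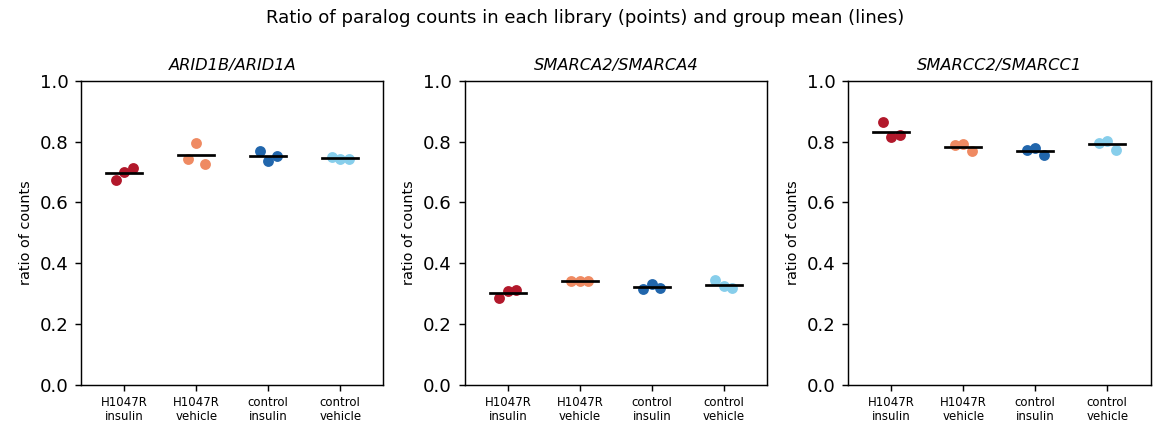
Ratio of the counts of 3 pairs of paralogs in each library (points) and the group mean (lines), on axes from 0 to 1, for H1047R insulin, H1047R vehicle, control insulin and control vehicle. In H1047R insulin ARID1B/ARID1A (0.674 to 0.714) and SMARCA2/SMARCA4 (0.286 to 0.312) lie below, and SMARCC2/SMARCC1 (0.815 to 0.865) above, the libraries of the other groups. With 3 libraries against 3, the smallest possible exact permutation p is 0.1.

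Some of the remaining subunits of the complexes changed by more than either called member. Of 19 further genes, 18 were tested, and ACTL6B, a neuronal subunit, was not, with at most 2 counts in a library. Insulin in H1047R cells called 7 of the 18, 4 higher and 3 lower, beside 19.6% of all genes. H1047R in insulin called 8, 4 higher and 4 lower, beside 23.5% of all genes. Insulin in control cells called 1, which was lower, beside 1.63% of all genes, and H1047R in vehicle called 0 beside 0.158%, with 4 at an unadjusted p below 0.05 and none called by DESeq2.

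DPF1, a PHD-finger subunit of cBAF best known from neurons, was at 14.9, 17.6 and 17.2 CPM in H1047R insulin, 9.73, 9.78 and 9.61 CPM in H1047R vehicle, 8.88, 10.1 and 9.06 CPM in control insulin and 8.53, 8.28 and 9.71 CPM in control vehicle. All 3 H1047R insulin libraries were above the other 9. DPF1 rose by 0.77 ± 0.0830 with insulin in H1047R cells (fold 1.71, adjusted p = 4.51e-10) and by 0.83 ± 0.0818 with H1047R in insulin (adjusted p = 4.20e-11). Its widely expressed relative DPF2 was at 124, 124 and 115 CPM in H1047R insulin, 105, 98.8 and 98.4 CPM in H1047R vehicle, 97.3, 97.8 and 95.1 CPM in control insulin and 92.7, 89.4 and 97.6 CPM in control vehicle. DPF2 rose by 0.26 ± 0.0440 with insulin in H1047R cells and by 0.32 ± 0.0438 with H1047R in insulin (adjusted p = 5.07e-06 and 8.19e-08). The insulin effects on DPF2 differed by 0.21 ± 0.0630 between H1047R and control cells, which did not pass (adjusted p = 0.0127) except without H1047R vehicle replicate 1 (0.27, adjusted p = 6.98e-04).

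PHF10 (BAF45A), the PHD-finger subunit of PBAF (chromosome 6, 169703902 to 169725566, minus strand), moved in opposite directions with insulin in H1047R and control cells. It was at 105, 108 and 105 CPM in H1047R insulin and at 86.1, 84.7 and 92.7 CPM in H1047R vehicle, but at 80.2, 80.2 and 73.3 CPM in control insulin and at 96.0, 95.5 and 87.0 CPM in control vehicle. Within each genotype the insulin and vehicle libraries did not overlap. PHF10 rose by 0.27 ± 0.0468 with insulin in H1047R cells (adjusted p = 7.90e-06) and fell by 0.25 with insulin in control cells (SE 0.0479, adjusted p = 3.72e-04), and the difference of the insulin effects was 0.53 ± 0.0670 (adjusted p = 7.40e-08). The call in control cells was lost without control insulin replicates 2 or 3 (-0.28 and -0.21, adjusted p = 0.00138 and 0.00921), without control vehicle replicates 1 or 2 (-0.23 each, adjusted p = 0.00565 and 0.00725) and with counts taken without strand (-0.23, adjusted p = 0.00112). With H1047R in insulin PHF10 rose by 0.44 ± 0.0468 (adjusted p = 2.14e-10), in the same libraries in which its PBAF partner PBRM1 was lower. BRD7, the other PBAF bromodomain subunit, was named after its values were seen and missed the threshold with insulin in H1047R cells (-0.17 ± 0.0426, adjusted p = 0.00112), which it passed without H1047R vehicle replicate 1 (-0.19, adjusted p = 6.62e-04), with DESeq2 (-0.16, adjusted p = 5.54e-04), with the 1 CPM filter and with thinned counts.

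The BCL7 proteins are small subunits bound to the ATPase module. BCL7B was at 77.1, 77.3 and 74.6 CPM in H1047R insulin, 60.8, 59.1 and 55.9 CPM in H1047R vehicle, 56.5, 52.9 and 58.7 CPM in control insulin and 56.8, 52.9 and 56.3 CPM in control vehicle, and rose by 0.38 ± 0.0482 with insulin in H1047R cells (adjusted p = 2.12e-08). BCL7C was at 28.1, 28.3 and 26.4 CPM in H1047R insulin, 35.3, 36.3 and 36.0 CPM in H1047R vehicle, 37.0, 38.6 and 39.1 CPM in control insulin and 40.5, 40.1 and 37.0 CPM in control vehicle, and fell by 0.38 on the log2 scale (SE 0.0553, adjusted p = 4.04e-07). For both paralogs the H1047R insulin libraries were clear of the other 9. With H1047R in insulin BCL7B rose by 0.45 ± 0.0479 and BCL7C fell by 0.47 (SE 0.0543), with adjusted p = 3.39e-10 and 1.84e-09. The third relative, BCL7A, was at 3.59 to 5.06 CPM over all libraries and was not called (named after its values were seen).

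SMARCD3 (BAF60C), a core subunit known from heart and muscle, was at 10.1, 8.66 and 10.0 CPM in H1047R insulin, 13.6, 15.2 and 14.0 CPM in H1047R vehicle, 14.8, 15.6 and 13.9 CPM in control insulin and 15.0, 16.2 and 15.7 CPM in control vehicle. The H1047R insulin libraries were the lowest, and SMARCD3 fell by 0.58 on the log2 scale with insulin in H1047R cells (SE 0.0811, adjusted p = 2.06e-07) and by 0.63 with H1047R in insulin (SE 0.0794, adjusted p = 1.67e-08). Its paralogs SMARCD1 and SMARCD2 were not called in any comparison. Beyond the genes named by size, and named after their values were seen, ACTB, the β-actin that also sits in the ATPase module, fell by 0.21 and 0.22 on the log2 scale (SE 0.0361 each, adjusted p = 7.32e-06 and 3.22e-06) with insulin in H1047R cells and with H1047R in insulin, although 12 processed pseudogenes are annotated for it. SS18L1 fell by 0.29 with H1047R in insulin (SE 0.0582, adjusted p = 7.30e-05), a call lost without control insulin replicate 1 (-0.26, adjusted p = 0.00117) and without H1047R insulin replicates 1 or 3 (-0.26 and -0.27, adjusted p = 0.00163 and 0.00114). None of the 3 ncBAF subunits BRD9, BICRA and BICRAL was called in any comparison.

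**Figure D5:**
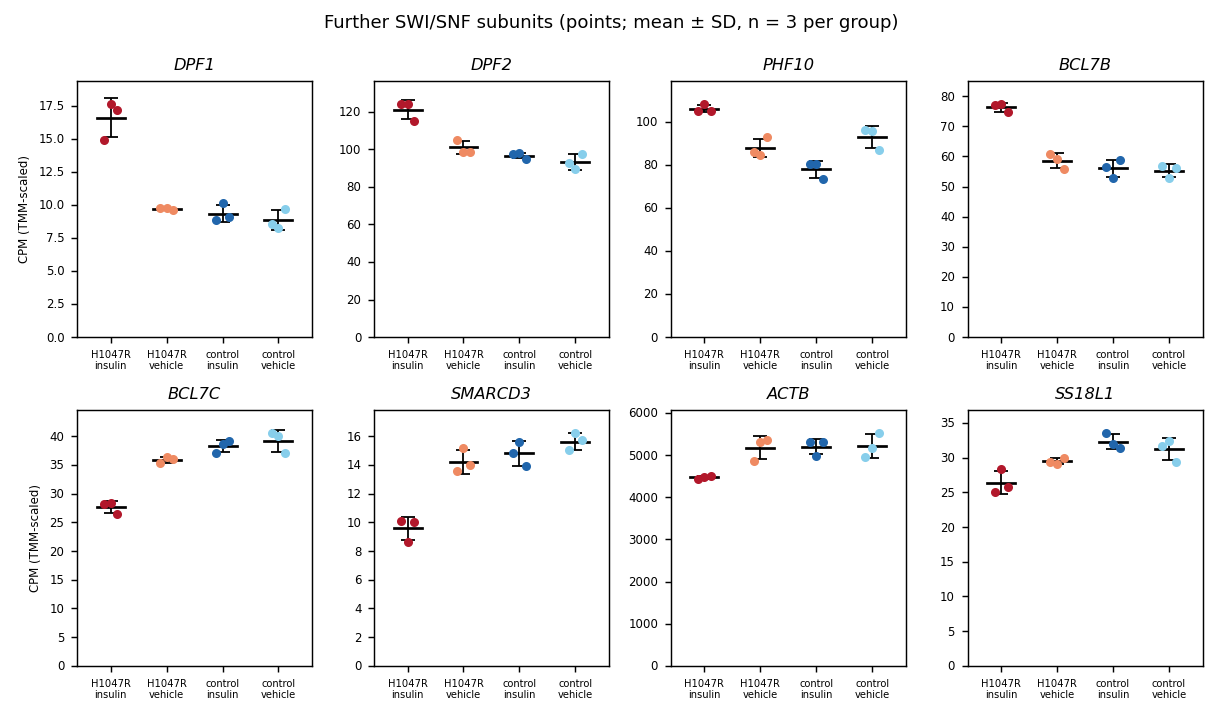
Levels in TMM-scaled CPM (vertical axes from 0) of 8 further SWI/SNF subunits for the 3 libraries (points) of H1047R insulin, H1047R vehicle, control insulin and control vehicle, with the mean and SD of each group. The H1047R insulin libraries lie above all others for DPF1 (14.9 to 17.6 CPM), DPF2, PHF10 and BCL7B (74.6 to 77.3 CPM) and below all others for BCL7C (26.4 to 28.3 CPM), SMARCD3, ACTB and SS18L1.

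To ask whether the response to insulin itself differed by genotype, the insulin effect in H1047R cells was set against that in control cells. No member passed, the nearest being PBRM1 and SMARCC1 (adjusted p = 0.0738 and 0.0987). Of the 18 further subunits 5 did, beside 9.07% of all genes. The difference of insulin effects was 0.69 ± 0.125 for DPF1 (adjusted p = 5.12e-05), 0.53 ± 0.0670 for PHF10, 0.36 ± 0.0695 for BCL7B (adjusted p = 1.02e-04), -0.50 ± 0.112 for SMARCD3 (adjusted p = 8.93e-04) and -0.34 ± 0.0774 for BCL7C (adjusted p = 8.76e-04). The BCL7B call was lost without control insulin replicate 2 (0.32, adjusted p = 0.00117). The calls of SMARCD3 and BCL7C were each lost in 10 of 12 runs that left out 1 library, with differences of -0.54 to -0.43 and -0.37 to -0.30 and adjusted p up to 0.00713 and 0.00611, and SMARCD3 was not called by DESeq2. Both were also lost with DESeq2 size factors, library totals only, no low-count filter and counts thinned to the smallest library (adjusted p = 0.00117, 0.00155, 0.00114 and 0.0197 for SMARCD3 and 0.00128, 0.00203, 0.00251 and 0.00217 for BCL7C), and SMARCD3 with the filter of 1 CPM in 3 libraries and with counts taken without strand (adjusted p = 0.00108 and 0.00348).

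Other nucleosome remodelling and Polycomb genes were taken as related families. Other remodellers also move or exchange nucleosomes, and Polycomb complexes are known to oppose SWI/SNF at many genes. The ISWI, CHD and NuRD, INO80 and Polycomb lists had 11, 19, 20 and 22 tested genes. Insulin in H1047R cells called 3 higher and 1 lower of the ISWI list, 4 higher and 6 lower of the CHD and NuRD list, 4 higher and 1 lower of the INO80, SRCAP and TIP60 list, and 6 higher and 4 lower of the Polycomb list, beside 19.6% of all genes called. Both directions occurred in every list, and the median log2 fold change lay between -0.021 and 0.059 in each list. CBX7, a chromodomain reader of Polycomb complexes, fell to 12.8, 13.9 and 13.7 CPM in H1047R insulin, against 23.7, 25.8 and 27.5 CPM in H1047R vehicle (log2 fold change -0.93 ± 0.0684, adjusted p = 1.86e-14). The insulin effect on CBX7 in H1047R cells differed from that in control cells by -0.62 ± 0.0956, less than this fall. CBX7 was thus lower with insulin in control cells too, by a smaller amount that was not called. INO80C, a subunit of the INO80 complex, rose to 26.0, 26.7 and 23.8 CPM, against 15.9, 14.0 and 15.0 CPM in H1047R vehicle (log2 fold change 0.77 ± 0.0758, adjusted p = 5.54e-11). With H1047R in insulin, MORF4L1, a chromodomain protein of the TIP60 complex, fell to 331, 351 and 345 CPM in H1047R insulin, against 496, 523 and 511 CPM in control insulin (-0.57 ± 0.0386, adjusted p = 8.27e-16), and the ISWI ATPase SMARCA1 fell to 239, 237 and 239 CPM, against 309, 321 and 317 CPM (-0.41 ± 0.0364, adjusted p = 3.28e-12). Insulin in control cells called 1 gene over the 4 lists, beside 1.63% of all genes, and DESeq2 called 2 Polycomb genes as lower. The gene called by edgeR was the Polycomb methyltransferase EZH1, at 32.0, 34.9 and 35.0 CPM in control insulin and 45.2, 43.4 and 41.9 CPM in control vehicle (-0.36 ± 0.0536, adjusted p = 9.21e-06).

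The members themselves varied together only loosely. Over the 12 libraries the Pearson correlation of log2 CPM between 2 members ranged from -0.475 to 0.816, with a median of 0.337 over 45 pairs. Among genes averaging at least 10 CPM that are no members, those whose log2 CPM over the 12 libraries was most like that of ARID1A were the histone demethylase KDM3B (r = 0.945), the palmitoyltransferase ZDHHC5 (r = 0.937), UBAP2L (r = 0.925), the myotubularin relative MTMR10 (r = 0.919) and the histone acetyltransferase CREBBP (r = 0.892). The points share libraries, groups and scaling, and the whole range of ARID1A was 1.15-fold, so the likeness is a description of small differences. KDM3B was at 211, 203 and 214 CPM in H1047R insulin, 203, 211 and 211 CPM in H1047R vehicle, 198, 192 and 196 CPM in control insulin and 197, 207 and 215 CPM in control vehicle, so its mean too was lowest in control insulin. None of these 5 genes passed the threshold in any comparison.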

How the data were processed

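RNA-seq of 12 libraries (n = 3 per group) was analysed. After adapter trimming (cutadapt, Trim Galore) the authors aligned read pairs to hg38 with STAR, and they deposited its gene counts, which hold uniquely placed pairs without normalization. Neither tool versions nor the human annotation release were given in the sources used here. The deposited reverse-strand counts (93.5 to 93.7% of stranded gene counts) were used, as in the study. The 4 rows that name no gene (unmapped 3.12 to 4.09%, multiply placed 8.48 to 15.4%, no feature 3.91 to 4.55% and ambiguous 3.31 to 3.61% of reads) entered neither library sizes nor tests. Reads shared between near-identical gene copies were therefore not counted. Of 60617 identifiers, 60357 matched a gene table and 42009 had a symbol.

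The test was the quasi-likelihood test of edgeR 4.0.16 in R 4.3.3 (glmQLFit, glmQLFTest) after TMM scaling, for genes with a mean count of 1 or more per library. All 12 libraries entered a single fit with group as the only factor, leaving 8 residual degrees of freedom. Calls were made at a Benjamini-Hochberg FDR below 0.001 over all genes, and every adjusted p of a gene comes from this test unless DESeq2 1.42.0 is named. Standard errors are the absolute log2 fold change over the square root of F. No 2 replicates agreed within counting noise (chi-square divided by its degrees of freedom was 2.70 to 5.90), and H1047R vehicle replicate 1 stood farthest from its group. Positions, exons and transcript lengths come from GENCODE 44 (hg38). Besides the 10 members, the text names called genes of related lists by size of change (up to 6 further SWI/SNF subunits and 2 genes of each other list per comparison), the transfected gene and the 5 genes most like ARID1A. Members and lists were chosen with earlier results of these data known. Same-numbered replicates were not seen to deviate together (correlations -0.223 to 0.214, against -0.191 to 0.234 for different numbers). Alternatives tried were other scalings and filters, DESeq2, counts without strand, thinning to the smallest library, a replicate block, fits of only the groups compared, another threshold, and leaving out each library. The scripts were tested on simulated data.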

Additional observations from a re-analysis of the deposited data

Results flagged for a closer look

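The insulin effect differed between H1047R and control cells for 5 SWI/SNF subunits, 0 of the 10 members and 5 of the 18 further subunits. It also differed for 15 genes of related families, whose ISWI, CHD and NuRD, INO80 and Polycomb lists had 11, 19, 20 and 22 tested genes. Of all genes, 9.07% were called. The test was that of the difference itself (edgeR, FDR below 0.001 over all genes, n = 3 per group). Of the 15 genes, 8 are named here by size of change within their list (at most 2 per list). Among the SWI/SNF subunits, the difference (log2, H1047R cells minus control cells) was 0.69 ± 0.125 (SE) for DPF1, 0.53 ± 0.0670 for PHF10, 0.36 ± 0.0695 for BCL7B, -0.50 ± 0.112 for SMARCD3 and -0.34 ± 0.0774 for BCL7C. PHF10 was the one of these 5 with a called insulin effect in control cells, of the opposite sign to that in H1047R cells. The calls of SMARCD3 and BCL7C were lost under several alternatives, and that of BCL7B without control insulin replicate 2. The PHF10 call in control cells was lost without any of 4 single libraries and with counts taken without strand.

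Among INO80, SRCAP and TIP60 genes it was 0.73 ± 0.113 for INO80C (adjusted p = 3.19e-06) and 0.48 ± 0.0914 for ING3 (adjusted p = 1.04e-04). Among Polycomb genes it was -0.62 ± 0.0956 for CBX7 (adjusted p = 3.60e-06) and -0.55 ± 0.102 for CBX2 (adjusted p = 7.24e-05), both chromodomain readers. Among ISWI genes it was -0.30 ± 0.0517 for SMARCA1 (adjusted p = 2.63e-05) and 0.23 ± 0.0525 for BAZ1B (adjusted p = 8.23e-04), and among CHD and NuRD genes 0.31 ± 0.0584 for CHD2 (adjusted p = 9.01e-05) and -0.29 ± 0.0499 for the histone chaperone RBBP4 (adjusted p = 2.17e-05). PIK3CA itself differed in the same test (1.72 ± 0.123, adjusted p = 3.81e-14), so the level of the transfected gene moved with all of these results and its part in them cannot be told apart.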

How the results depend on the processing

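Log2 fold changes of the 10 members, of the genes named by size and of ACTB, SS18L1, BRD7, DPF2 and PIK3CA were recomputed under each alternative that gave a value, 2524 values in all. Of these, 72 had the other sign, 0 of them called, 73 lost a call and 10 gained one at the same threshold (PBRM1 and BRD7 for insulin in H1047R cells, and DPF2 and ACTB for the difference of insulin effects). The count of called members, 1 (SMARCC1) for insulin in H1047R cells, was 0 with DESeq2 size factors, library totals only, no low-count filter and counts thinned to the smallest library, 5 at FDR 0.05, and 0 to 1 when 1 library was left out. For H1047R in insulin, the count of 1 (PBRM1) was 0 with DESeq2 size factors, library totals only, DESeq2, a filter of 1 CPM in 3 libraries and thinned counts, 4 at FDR 0.05, and 0 to 1 when 1 library was left out. It was 0 in every alternative for the other 3 comparisons. Genes called at FDR 0.05 were 7812 for insulin in H1047R cells, 8774 for H1047R in insulin, 1206 for insulin in control cells, 276 for H1047R in vehicle and 4848 for the difference of insulin effects. For H1047R in vehicle, main count 36, DESeq2 called 22 genes, no low-count filter 152 and the 1 CPM filter 6. With 1 library left out, the counts were 3471 to 4647, 4423 to 5793, 233 to 521, 14 to 100 and 1562 to 2564 in the order above. Without control insulin replicate 2, insulin in control cells gave 233. The cause of these shifts was not tested. No scaling moved the median of all genes by more than 0.1 on the log2 scale. A replicate block gave 4435, 5336, 366, 53 and 2062 called genes in the same order, 1 member for each of the first 2 comparisons, and SMARCC1 and PBRM1 as the members (adjusted p = 3.07e-04 and 9.78e-04). It ended the interaction calls of SMARCD3 (-0.49), BCL7C (-0.34) and BAZ1B (0.23). No pairing by replicate number was detected (3 of 12 libraries were closest to their own number), which does not show that the samples are unpaired. The BAZ1B call was lost without any of 9 single libraries (0.21 to 0.29 over all 12 runs, adjusted p up to 0.00645). Of the 12 differences in paralog ratios, 4 small ones changed sign when 1 library was left out. These were ARID1B/ARID1A for insulin in control cells (-0.0032 to 0.032) and H1047R in vehicle (-0.019 to 0.045), SMARCA2/SMARCA4 for insulin in control cells (-0.054 to 0.0024) and SMARCC2/SMARCC1 for H1047R in vehicle (-0.030 to 0.00024). Most members changed by less than the called SMARCC1 and PBRM1. With 3 libraries per group, a missing call for changes that small does not show an unaltered level. Reads shared with overlapping genes or pseudogenes limit SMARCE1 and ACTB, and may touch other named genes. Among them, INO80C shares 23.5% of its exon bases with an overlapping gene model. Processed pseudogenes are annotated for BRD7 (7), RBBP4 (7), MORF4L1 (6) and HDAC1 (2). Their part in the results was not tested.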

Other observations

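Of the histone deacetylases of the NuRD complex, HDAC1 was lower with insulin in H1047R cells and HDAC2 was lower with H1047R in insulin. These are different comparisons that share the H1047R insulin libraries. HDAC1 was at 200, 209 and 204 CPM in H1047R insulin and 248, 247 and 249 CPM in H1047R vehicle (log2 fold change -0.28 ± 0.0374, adjusted p = 7.72e-08), and HDAC2 at 199, 203 and 195 CPM in H1047R insulin and 244, 264 and 256 CPM in control insulin (-0.36 ± 0.0379, adjusted p = 2.97e-10). The NuRD zinc-finger subunit GATAD2A was higher, at 136, 130 and 132 CPM in H1047R insulin and 111, 101 and 102 CPM in H1047R vehicle (0.34 ± 0.0421, adjusted p = 1.18e-08). The remodeller CHD2 was at 172, 168 and 179 CPM in H1047R insulin and 139, 133 and 129 CPM in control insulin (0.37 ± 0.0410, adjusted p = 5.75e-10). In none of these pairs did the libraries overlap, but the genes were named because they were called, so this adds no separate evidence. Of all genes, 44.8% did not overlap for insulin in H1047R cells and 48.5% for H1047R in insulin.

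The ISWI partner BAZ1A rose with insulin in H1047R cells (0.40 ± 0.0449, adjusted p = 1.31e-09), with 88.2, 87.2 and 89.1 CPM in H1047R insulin and 68.1, 67.0 and 65.2 CPM in H1047R vehicle. BAZ1A was also higher in control insulin (73.4, 72.7 and 67.8 CPM) than in control vehicle (60.8, 64.5 and 62.9 CPM), where it was not called. The difference of the insulin effects on BAZ1A was not called either. The Polycomb subunit PHC2 was at 138, 127 and 132 CPM in H1047R insulin and 86.8, 80.4 and 87.0 CPM in control insulin (0.65 ± 0.0467, adjusted p = 7.29e-15). CBX2 was at 10.8, 10.5 and 10.3 CPM in H1047R insulin and 15.4, 16.4 and 16.7 CPM in H1047R vehicle (-0.62 ± 0.0734, adjusted p = 5.21e-09). All adjusted p-values are from edgeR over all genes, and PIK3CA level and multiply placed reads differed between the same groups.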
